A study of Mus musculus with 28 samples.

Results

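Adam11, Adcy5, Btnl10, Hprt, Igfbpl1, Pla2g2f, Prrxl1, Tmem121b and Zfp804a rose with doxycycline (Dox) in all 7 inducible mouse embryonic stem cell lines of the series. They were chosen by their Dox against No Dox change, measured in the same libraries: a gene was past the threshold in a line at an adjusted p under 0.05 and a log2 fold change of at least 1.5 (limma). The table held 19421 genes, 16837 were tested, and 12 of these (0.0713%) were past the threshold upward in all 7 lines. The 9 genes described here are among those 12, and all 9 passed the filter on low values, Prrxl1 only through its Dox libraries. The other 3 were Grin2c, Kcnj12 and Stra6, whose smallest rises on the log2 scale were 1.65, 2.34 and 1.85. Because the rise chose the genes, each rise below is given as a description, without a test. The rule asked for a rise in every line and not for its size relative to other lines, so differences between lines were tested. These tests use the same changes in the same libraries and are not independent of the choice. Of all tested genes, 14399 were past the threshold upward in no line. The shares of all genes given beside the tests are therefore background and not a like comparison.

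The lines derive from the parental line A2loxCre and carry a Dox-inducible cassette with the yellow fluorescent protein mVenus and 1 to 3 transcription factors. Atoh1 is a basic helix-loop-helix factor, Gfi1 a zinc-finger repressor and Pou4f3 a POU homeodomain factor, and hair cells of the inner ear use all 3. The lines were iAtoh1, iGfi1, iPou4f3, iG+A (Gfi1 and Atoh1), iG+P (Gfi1 and Pou4f3), iP+A (Pou4f3 and Atoh1) and iGPA (all 3). Cells were grown as embryoid bodies (EBs) to day 6. The Dox libraries came from EBs given 2 µg/ml Dox for the final 48 h, from which mVenus+ cells were sorted. The No Dox libraries came from whole, unsorted EBs of the same line and day. Each of the 14 groups had 2 libraries, described as different clones of a line, so 1 group rests on 2 clones. Estimated depth was 30.3 to 48.0 M reads. Each transgene matched the labels: in the Dox libraries that carry it, Atoh1 held 12820 to 21240 normalized counts, Gfi1 8119 to 12490 and Pou4f3 4694 to 19880, and in the Dox libraries that do not they held 14.3 to 32.5, 49.7 to 113 and 27.7 to 101. The Atoh1 protein carried a Flag tag and the Pou4f3 protein a Myc tag. Dox, sorting and transgene expression always went together and cannot be told apart in a rise with Dox. In these bulk libraries, more cells that express a gene and more RNA per cell cannot be told apart either.

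The genes belong to different families. Hprt is the purine salvage enzyme that recycles hypoxanthine and guanine. It lies on the X chromosome, and in A2Lox cells the inducible cassette is inserted just upstream of it. Prrxl1 (also called Drgx) is a homeodomain factor of sensory ganglia and the dorsal spinal cord. Zfp804a encodes a zinc-finger protein. Adam11 is a neuronal member of the ADAM family that lacks protease activity, and its relatives Adam22 and Adam23 are receptors for secreted Lgi proteins. Adcy5 is an adenylyl cyclase, which makes cyclic AMP. Pla2g2f is a secreted phospholipase A2, which releases fatty acids from phospholipids, and Igfbpl1 is a secreted protein related to the insulin-like growth factor binding proteins. Btnl10 is a butyrophilin-like gene, from a family related to immune co-receptors, and Tmem121b (formerly Cecr6) encodes a transmembrane protein.

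In the mm9 build (NCBIM37) the genes lay on 7 chromosomes, and none lay beside another. Adam11 (chr11:102622753-102641576) and Btnl10 (chr11:58731410-58740660) were on the forward strand of chromosome 11. Igfbpl1 (chr4:45822340-45839795) and Pla2g2f (chr4:138306448-138313541) were on the reverse strand of chromosome 4. Adcy5 (chr16:35154963-35305823), Hprt (chrX:50341314-50374836), Prrxl1 (chr14:33412594-33462432) and Zfp804a (chr2:81893379-82100036) were on the forward strand. Tmem121b (chr6:120442106-120443977, reverse strand) was entered there as Cecr6 and typed as a pseudogene, and the other 8 were typed as protein coding.

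Levels are normalized counts of a library, and they are compared between libraries and not between genes. For 8 of the 9 genes every Dox library lay above every untreated library of any line, where 73 of all tested genes (0.434%) did so. A rise in every line was what chose the genes, so nothing is read from this count. Zfp804a was the exception, with a lowest Dox level of 14.5 in iGfi1 and a highest untreated level of 18.5 in iG+A. The untreated level differed among the 7 lines for Hprt only (F = 10.4, adjusted p = 0.00464, limma F test), against 12.1% of all genes. For the other 8 genes the adjusted p ran from 0.0604 (Adam11) to 0.554 (Adcy5). Leaving out 1 of 4 untreated libraries (iAtoh1 replicate 2, iG+A replicate 2 and either of iGPA) raised the count of such genes from 1 to 2.

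**Figure D1:**
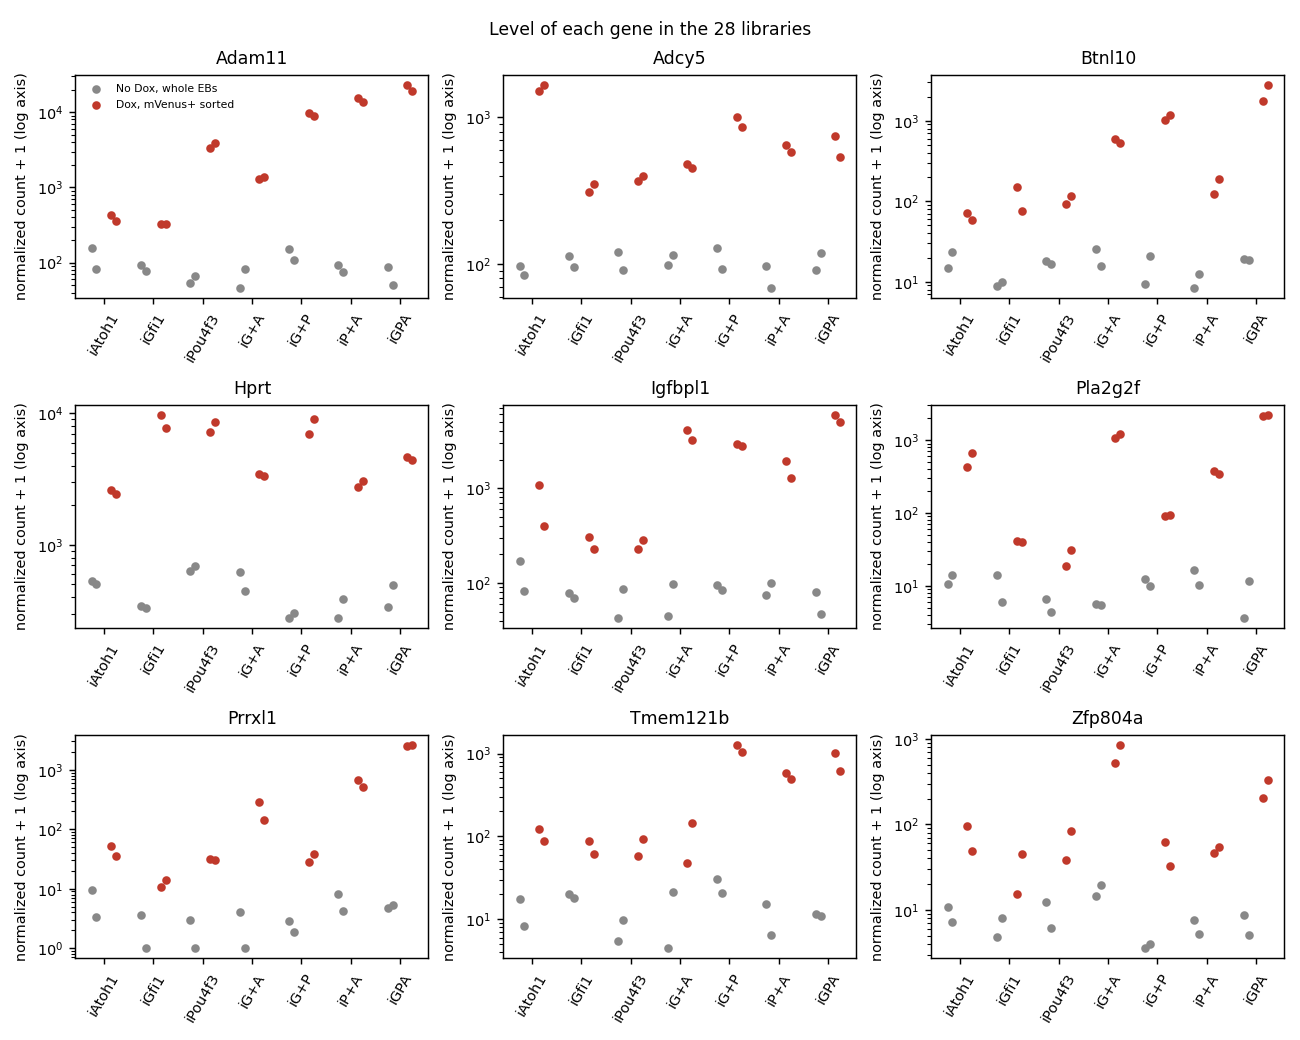
Normalized count plus 1 (log axis) of each of the 9 genes in the 28 libraries, by line, with grey points for No Dox and red points for Dox. Each point is 1 library, and in 8 panels all red points lie above all grey ones, while in the Zfp804a panel the lowest Dox level (14.5, iGfi1) lies under the highest untreated level (18.5, iG+A).

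The size of the rise differed among lines for all 9 genes (adjusted p from 5.22e-09 for Adam11 to 0.00945 for Zfp804a, limma F test), where 51.9% of all genes did so. The median log2 rise of the 9 genes was 2.10 in iGfi1, 2.72 in iPou4f3, 2.96 in iAtoh1, 4.18 in iP+A, 4.77 in iG+P, 4.83 in iG+A and 6.46 in iGPA. The median of all tested genes stayed between -0.03 and 0.02 in these contrasts. All 9 genes were past the threshold in each line by the rule, and the share of all genes that was past it upward was 1.47% in iPou4f3, 2.15% in iGfi1, 2.89% in iAtoh1, 4.7% in iP+A, 5.16% in iG+P, 7.35% in iG+A and 8.65% in iGPA. Apart from iPou4f3 and iGfi1, whose order was swapped, the lines with more called genes also had the higher medians. The rise was largest in iGPA for 6 of the 9 genes, and smallest in iGfi1 for 6 and in iAtoh1 for 3. The smallest of the 63 rises was 1.66 (Adcy5 in iGfi1) and the largest 8.99 (Prrxl1 in iGPA). The largest is of a gene near 0 without Dox, so its value and its place depend on the pseudocount. Without the second iPou4f3 Dox library, Igfbpl1, Pla2g2f, Tmem121b and Zfp804a were not past the threshold in every line. Leaving out other single libraries of iAtoh1 (No Dox), iGfi1 or iPou4f3 also lost genes. Among these were Adam11 and Btnl10 (log2 rises of 1.32 and 1.44 in iAtoh1) and Prrxl1 (1.72 in iGfi1).

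**Figure D2:**
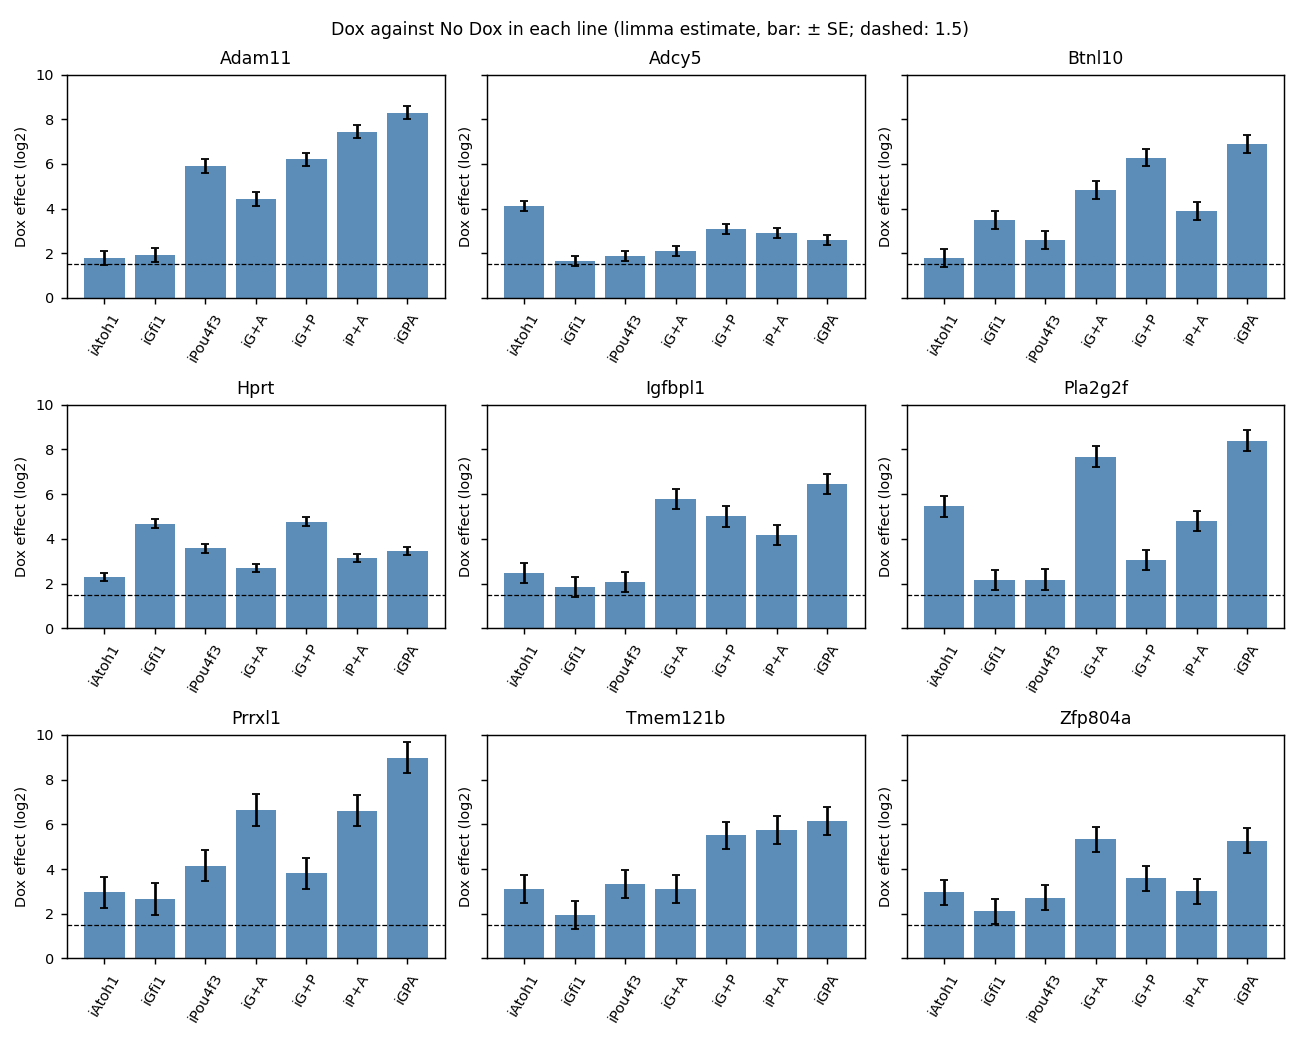
Dox effect (log2, Dox minus No Dox) of each of the 9 genes in the 7 lines, with bars for the limma estimate, whiskers for its SE and a dashed line at the threshold of 1.5. Adam11 climbs from 1.79 in iAtoh1 to 8.29 in iGPA, Adcy5 is highest in iAtoh1 (4.13), and Hprt is highest in iG+P (4.77) and iGfi1 (4.68).

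To ask how each transcription factor bears on the rise, the Dox effects of lines that differ by 1 factor were subtracted and averaged over the 3 such pairs of lines (for Gfi1, iG+A minus iAtoh1, iG+P minus iPou4f3 and iGPA minus iP+A). Adding Gfi1 changed the Dox effect of 7 of the 9 genes (8 with same-numbered libraries paired), all upward, with a log2 median of 1.83 over the 9. Of all genes 34% changed, and 17.7% upward. Adding Pou4f3 raised the Dox effect of 6 of the 9 (median 1.86), against 11% of all genes changed and 6.91% upward. Adding Atoh1 changed 8 of the 9, of which 7 rose and Hprt fell (median 1.73), against 30.6% of all genes changed and 17.4% upward. The medians over all genes were 0.01, -0.02 and 0.01 for the 3 factors. A called average did not always hold in a single pair. No pair passed for Btnl10 and Tmem121b on adding Atoh1 (smallest adjusted p of 0.0845 and 0.176, limma). The same held for Hprt on adding Pou4f3 (0.0724) and Zfp804a on adding Gfi1 (0.0508). The 3 contrasts share lines and are not independent of each other. Pairs that start from iPou4f3 also differ in the level of Pou4f3. Its mean Dox level was 5037 in iPou4f3, 18740 in iG+P and 11870 in iP+A. The part of this in the changes on adding Gfi1 or Atoh1 was not tested.

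**Figure D3:**
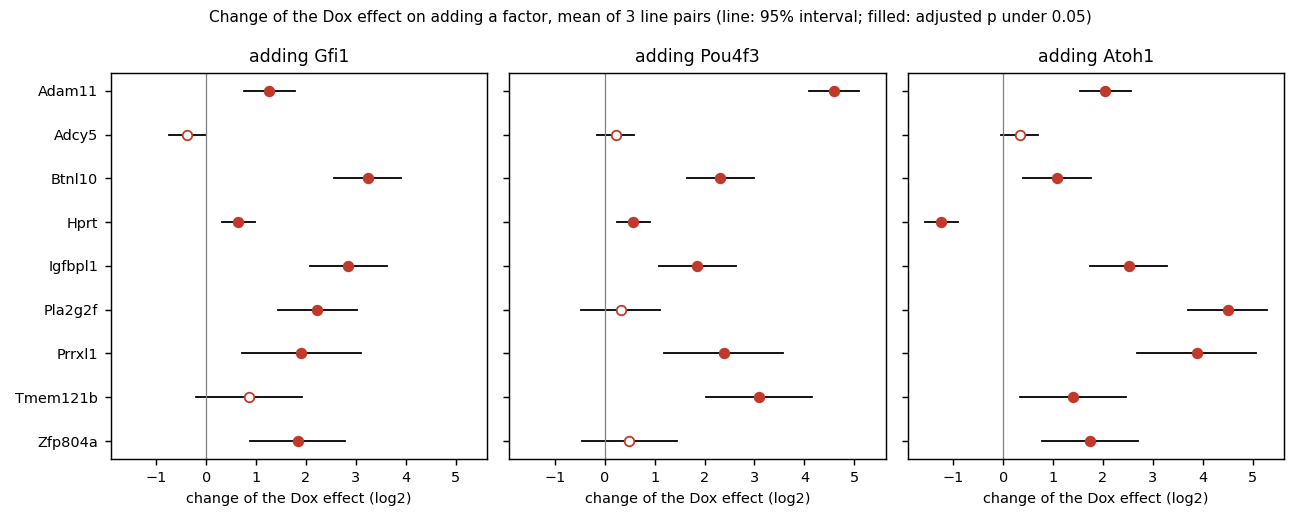
Change of the Dox effect (log2) of the 9 genes on adding Gfi1, Pou4f3 or Atoh1, as the mean of 3 line pairs with its 95% interval, with filled points at an adjusted p under 0.05. The largest changes are Adam11 on adding Pou4f3 (4.60) and Pla2g2f on adding Atoh1 (4.49), Hprt falls on adding Atoh1 (-1.24), and no point of Adcy5 is filled.

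For Adam11 the largest estimated change came on adding Pou4f3. It had an untreated level of 45.2 to 155 (median 80.7, n = 14). Its 2 Dox libraries held 425 and 358 normalized counts in iAtoh1, 322 and 324 in iGfi1, and 1278 and 1381 in iG+A, the 3 lines without Pou4f3. They held 3337 and 3909 in iPou4f3, 9707 and 9007 in iG+P, 15390 and 13870 in iP+A, and 23200 and 19150 in iGPA. The 8 Dox libraries with Pou4f3 therefore lay above the 6 without it, as for 1.09% of all genes. The log2 rises were 1.79, 1.93 and 4.44 in the first 3 lines and 5.91, 6.20, 7.45 and 8.29 in the other 4 (SE 0.30). Adding Pou4f3 raised the Dox effect by 4.60 (SE 0.24, adjusted p = 4.63e-10) and adding Atoh1 by 2.05 (SE 0.24, adjusted p = 6.04e-06). Adding Gfi1 raised it by 1.26 (SE 0.24, adjusted p = 0.000518). The single pairs for Gfi1 were 2.64 (iG+A minus iAtoh1), 0.84 (iGPA minus iP+A) and 0.29 (iG+P minus iPou4f3). Only the first of them passed (adjusted p = 0.000296). In the order of the 7 rises, the neighbouring lines iPou4f3 and iG+P, and iAtoh1 and iGfi1, did not differ by over 2 SE of the difference, and the other 4 neighbouring steps did. Of the 7 tested Adam11 relatives and Lgi ligands, Adam11 included, the count that rose past the threshold was 5 in iGPA and 1 in iGfi1, and 0 fell in any line. By unadjusted p under 0.05, up to 2 fell in a line. Lgi2 rose in 5 lines (log2 2.59 in iGPA), and Lgi3 and Lgi4 in 4 each (2.25 and 3.99 in iGPA). Adam22 and Adam23 passed in 0 lines, with log2 changes of -1.05 and -0.94 in iGPA.

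For Pla2g2f the largest estimated change came on adding Atoh1. Pla2g2f had an untreated level of 2.62 to 15.3 (median 9.11). Its Dox libraries without Atoh1 held 40.6 and 39.1 (iGfi1), 17.8 and 30.3 (iPou4f3), and 89.4 and 92.1 (iG+P). Those with Atoh1 held 433 and 665 (iAtoh1), 1078 and 1197 (iG+A), 372 and 345 (iP+A), and 2150 and 2224 (iGPA). All 8 libraries with Atoh1 lay above the 6 without it, as for 2.49% of all genes. The log2 rises ran from 2.16 in iGfi1 to 8.39 in iGPA (SE 0.46). Adding Atoh1 raised the Dox effect by 4.49 (SE 0.38, adjusted p = 1.28e-07) and adding Gfi1 by 2.23 (SE 0.38, adjusted p = 0.000158). Adding Pou4f3 changed it by 0.32 (95% interval -0.47 to 1.11, adjusted p = 0.67). Of the 9 tested secreted phospholipases A2, Pla2g2f was the only one past the threshold in 4 or more lines.

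For Prrxl1 the largest estimated change also came on adding Atoh1. Its untreated level was 0 to 8.40 (median 2.51), with 3 libraries at 0, in iGfi1, iPou4f3 and iG+A, whose other untreated library was above 0. Its Dox libraries held 9.54 and 13.0 in iGfi1, 30.6 and 29.5 in iPou4f3, 26.7 and 37.0 in iG+P, and 51.1 and 35.2 in iAtoh1. They held 286 and 142 in iG+A, 667 and 511 in iP+A, and 2547 and 2603 in iGPA. The lines with Atoh1 and another factor stood above the other 4. The log2 rises were 2.66, 4.16, 3.81 and 2.96 in these 4 lines and 6.64, 6.61 and 8.99 in the 3 higher ones (SE 0.70). These fitted rises depend on the pseudocount, since untreated libraries were near 0, and with a pseudocount of 5 the rise in iGfi1 was 1.38 and under the threshold. Adding Atoh1 raised the Dox effect by 3.87 (SE 0.57, adjusted p = 5.65e-05), adding Pou4f3 by 2.38 (SE 0.57, adjusted p = 0.00982) and adding Gfi1 by 1.90 (SE 0.57, adjusted p = 0.0145). With a pseudocount of 0.5 the call for Pou4f3 was lost (2.17, adjusted p = 0.0683, range over all alternatives 7.56e-06 to 0.0683). The single pairs for Gfi1 were 3.69 (iG+A minus iAtoh1), 2.375 (iGPA minus iP+A) and -0.35 (iG+P minus iPou4f3). Only the first of them passed (adjusted p = 0.016). The 95% intervals for Atoh1 and Pou4f3 overlapped, and the factors were not tested against each other. Of the 13 tested sensory and dorsal neuron factors, Prrxl1 included, those that rose past the threshold numbered 9 in iGPA, 8 in iP+A, 8 in iG+A, 6 in iG+P, 5 in iAtoh1, 3 in iGfi1 and 2 in iPou4f3. Lbx1, a homeodomain factor of the dorsal spinal cord, rose in 5 lines (log2 6.42 in iGPA), as did Pou4f1, the sensory neuron relative of Pou4f3 (6.21 in iP+A), and Ntrk3, the neurotrophin-3 receptor (5.19 in iGPA). Lmx1b rose in 4 lines (4.45 in iG+P). In the same list 3 genes fell, each in 1 line: Runx1 in iAtoh1 (-2.27), Ntrk2 in iG+A (-2.53) and Tlx1 in iG+P (-1.74), and Runx1 and Ntrk2 each rose in 1 other line.

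Btnl10 had its largest estimated change on adding Gfi1, although the 95% intervals for Gfi1 and Pou4f3 overlapped and the factors were not tested against each other. Its untreated level was 7.40 to 24.2 (median 15.0). Its Dox libraries held 70.1 and 57.4 in iAtoh1, 92.2 and 115 in iPou4f3, and 124 and 187 in iP+A, the lines without Gfi1. They held 148 and 74.9 in iGfi1, 595 and 532 in iG+A, 1026 and 1176 in iG+P, and 1769 and 2808 in iGPA. The iGfi1 libraries overlapped those without Gfi1, and the 3 combinations with Gfi1 lay above all of them. Adding Gfi1 raised the Dox effect by 3.24 (SE 0.32, adjusted p = 5.35e-07), adding Pou4f3 by 2.32 (SE 0.32, adjusted p = 8.08e-05) and adding Atoh1 by 1.08 (SE 0.32, adjusted p = 0.0165). Of 4 tested butyrophilins, Btn1a1 fell in 4 lines (log2 -1.84 in iG+A), and Btnl2, which was at 0 in every untreated library, was past the threshold upward in 2 (iPou4f3 and iP+A).

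Igfbpl1 rose most where factors were combined. Its untreated level was 41.7 to 169 (median 80.1). Its Dox libraries held 1071 and 397 in iAtoh1, 303 and 228 in iGfi1, and 225 and 283 in iPou4f3. They held 5909 and 4999 in iGPA, 4092 and 3211 in iG+A, 2941 and 2782 in iG+P, and 1933 and 1287 in iP+A. Each of the 8 libraries with a combination lay above each of the 6 with 1 factor, as for 1.13% of all genes. The log2 rises were 1.84 to 2.47 in the single lines and 4.18 to 6.46 in the combinations (SE 0.45). Adding Gfi1 raised the Dox effect by 2.84 (SE 0.37, adjusted p = 9.92e-06), adding Atoh1 by 2.51 (SE 0.37, adjusted p = 5.65e-05) and adding Pou4f3 by 1.86 (SE 0.37, adjusted p = 0.00261). Of 12 tested genes of the insulin-like growth factor system, Igfbpl1 was the only one past the threshold in 4 or more lines.

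Zfp804a and Tmem121b had replicates that lay far apart in some groups. Zfp804a had an untreated level of 2.56 to 18.5 (median 6.37). Its Dox libraries held 14.5 and 44.6 in iGfi1, 37.9 and 83.2 in iPou4f3, 95.8 and 47.5 in iAtoh1, 45.7 and 53.4 in iP+A, and 62.1 and 31.8 in iG+P. The highest were 525 and 848 in iG+A and 203 and 327 in iGPA, the 2 lines with both Gfi1 and Atoh1. Adding Gfi1 raised the Dox effect by 1.83 (SE 0.46, adjusted p = 0.00432) and adding Atoh1 by 1.73 (SE 0.46, adjusted p = 0.00761). Adding Pou4f3 changed it by 0.49 (95% interval -0.47 to 1.45, adjusted p = 0.57). Zfp804b, a relative, passed in 0 lines, with log2 changes of -0.52 to 0.52.

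Tmem121b had an untreated level of 3.48 to 29.7 (median 12.4). Its Dox libraries held 46.8 and 143 in iG+A, 57.9 and 91.9 in iPou4f3, 87.0 and 60.8 in iGfi1, and 122 and 86.1 in iAtoh1. They held 1264 and 1051 in iG+P, 1002 and 616 in iGPA, and 579 and 490 in iP+A. The lines with Pou4f3 and another factor stood above the other 4. Adding Pou4f3 raised the Dox effect by 3.08 (SE 0.51, adjusted p = 0.000444) and adding Atoh1 by 1.40 (SE 0.51, adjusted p = 0.0444), and the second call was lost in 19 of the 28 fits that left out 1 library. Adding Gfi1 changed it by 0.86 (95% interval -0.21 to 1.92, adjusted p = 0.211), and with the replicate block the adjusted p of that change was 0.0197 (0.0197 to 0.426 over all alternatives). Tmem121, its paralog, passed in 0 lines, with log2 changes of -1.38 to -0.14.

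For Adcy5 no averaged change passed the test. Its untreated level was 68.1 to 129 (median 95.7). Its Dox libraries held 1505 and 1667 in iAtoh1, above those of every other line. They held 998 and 858 in iG+P, 741 and 532 in iGPA, 645 and 577 in iP+A, 479 and 448 in iG+A, 370 and 400 in iPou4f3, and 311 and 351 in iGfi1. The log2 rise was 4.13 in iAtoh1 and 1.66 to 3.08 in the other lines (SE 0.22). The averaged changes were -0.38 for Gfi1 (95% interval -0.75 to -0.000479, adjusted p = 0.117), 0.22 for Pou4f3 (-0.16 to 0.59, adjusted p = 0.508) and 0.33 for Atoh1 (-0.05 to 0.70, adjusted p = 0.182). After quantile normalization the change for Gfi1 passed (-0.55, adjusted p = 0.0331, range over all alternatives 0.0331 to 0.234). Of its 9 pairs of lines that differ by 1 factor, 4 differed, in opposite directions, and each such contrast was called for 15.7%, 17.9%, 5.46% and 3.45% of all genes in the order given here. Adding Gfi1 to iAtoh1 lowered the Dox effect (-2.02, SE 0.31, adjusted p = 0.000235), and adding it to iPou4f3 raised it (1.21, SE 0.31, adjusted p = 0.0109). Adding Pou4f3 to iAtoh1 lowered it (-1.23, SE 0.31, adjusted p = 0.0239), and adding it to iGfi1 raised it (1.42, SE 0.31, adjusted p = 0.0136). The first of these calls held in all 28 fits that left out 1 library, and the other 3 in 26, 23 and 24 of them. Without the libraries that ended a call, the adjusted p was 0.0573 to 0.0635 for adding Gfi1 to iPou4f3 (iPou4f3 No Dox replicate 1, iG+P No Dox replicate 2), 0.0568 to 0.118 for adding Pou4f3 to iAtoh1 (replicate 2 of iAtoh1 Dox and No Dox, either iP+A Dox, iP+A No Dox replicate 1) and 0.0525 to 0.0823 for adding it to iGfi1 (replicate 1 of iGfi1 Dox and No Dox, iG+P Dox replicate 1, iG+P No Dox replicate 2). The last was also lost after quantile normalization (1.19, adjusted p = 0.0606). Of the 10 adenylyl cyclases, Adcy5 was the only one past the threshold in 4 or more lines.

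Hprt, next to the inserted cassette, was lower in the lines with Atoh1. Its untreated level was 277 to 686 (median 414). Its Dox libraries with Atoh1 held 2617 and 2454 (iAtoh1), 3464 and 3330 (iG+A), 2756 and 3063 (iP+A), and 4619 and 4385 (iGPA). Those without Atoh1 held 9733 and 7743 (iGfi1), 7154 and 8564 (iPou4f3), and 6955 and 9032 (iG+P). All 8 with Atoh1 lay below the 6 without it, as for 3.09% of all genes. The log2 rises were 4.77 in iG+P, 4.68 in iGfi1, 3.57 in iPou4f3, 3.46 in iGPA, 3.14 in iP+A, 2.69 in iG+A and 2.28 in iAtoh1 (SE 0.19), and in that order only the step from iGfi1 to iPou4f3 was over 2 SE of the difference. Adding Atoh1 lowered the Dox effect by 1.24 (a difference of -1.24, SE 0.16, adjusted p = 1.08e-05). Adding Gfi1 raised it by 0.64 (SE 0.16, adjusted p = 0.00341) and adding Pou4f3 by 0.57 (SE 0.16, adjusted p = 0.0217). The log2 difference of the untreated level between lines that carry a transgene and lines that do not was -0.29 for Gfi1 (SE 0.11, adjusted p = 0.189) and -0.42 for Pou4f3 (SE 0.11, adjusted p = 0.138), and 0.04 for Atoh1, and none passed the test. The untreated level of Hprt did differ among the lines (adjusted p = 0.00464, limma F test), and these untreated levels enter the Dox effects. On adding Gfi1 the mean untreated level went from 659 to 290 (iPou4f3 to iG+P), 520 to 533 (iAtoh1 to iG+A) and 332 to 416 (iP+A to iGPA). The first pair carried the untreated difference for Gfi1, and its mean Dox levels were 7859 and 7993. On adding Pou4f3 the mean untreated level went from 520 to 332 (iAtoh1 to iP+A), 337 to 290 (iGfi1 to iG+P) and 533 to 416 (iG+A to iGPA). The mean Dox levels of these pairs went from 2536 to 2909, 8738 to 7993 and 3397 to 4502. Of the 16 tested purine genes Hprt was the only one past the threshold upward in any line, and none fell. By unadjusted p under 0.05, 1 to 7 of the 16 rose and 2 to 10 fell in a line. Aprt, the adenine salvage enzyme, had log2 changes of -0.98 in iAtoh1 and -0.31 in iPou4f3.

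No tested gene beside Hprt was past the threshold upward. Of the 19 other genes of the table that start within 500 kb of Hprt, 9 were tested, and 0 were past the threshold upward in any line (limma, with 4 at an unadjusted p under 0.05 and a positive change in some line). Of all tested genes 14.5% were past the threshold upward in at least 1 line, so a count of 0 among 9 says little about these genes. Phf6, a chromatin protein gene at -75.9 kb from the Hprt start (negative: upstream), changed by -0.17 to 0.73 on the log2 scale. Mir351, 65.2 kb downstream, was past the threshold downward in 2 lines (-2.36 in iGPA). Plac1, a placenta-specific gene 252 kb downstream, fell in 6 lines (log2 -5.98 in iGPA and -5.69 in iG+P), and in iPou4f3 its change was -0.25. Gpc3, a cell-surface proteoglycan gene at -374 kb, fell in 2 lines. Ccdc160 and Etd each fell in 1 line, with highest changes of 1.48 and 2.02, and Fam122b, Fam122c and Mospd1 passed in none, with highest changes of -0.08, 1.43 and 0.79. The other 10 genes in this window were microRNA host or precursor genes under the filter: Mir363, Mir92-2, Mir20b, Mir18b, Kis2, Mir450b, Mir450-1, Mir542, Mir503 and Mir322. Whether the cassette takes part in the rise of Hprt was not tested.

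**Figure D4:**
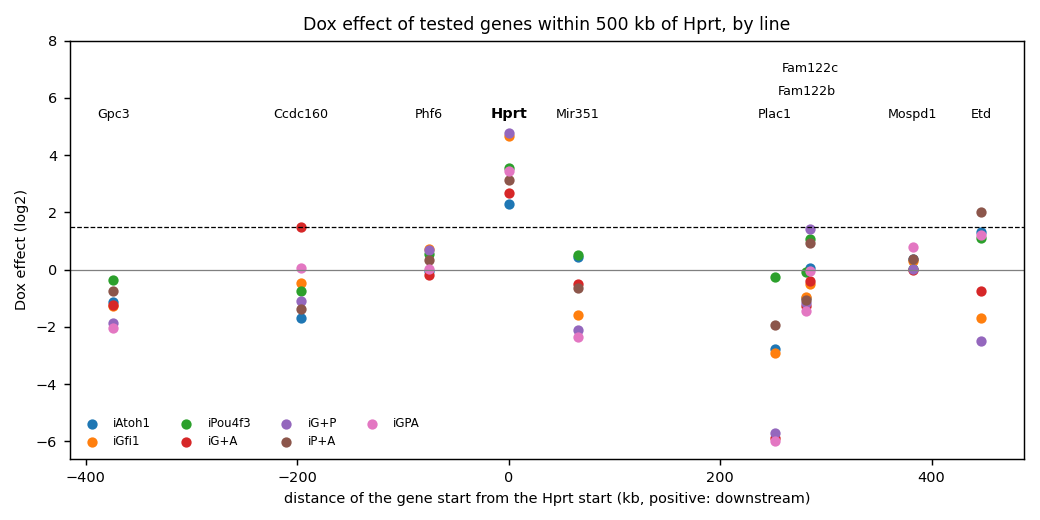
Dox effect (log2) of Hprt and of the 9 tested genes that start within 500 kb of it, against the distance of their start from the Hprt start in kb, with 1 colour per line and a dashed line at 1.5. Hprt lies between 2.28 and 4.77 in the 7 lines, the nearest tested upstream gene Phf6 between -0.17 and 0.73, and Plac1 reaches -5.98.

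In the same window of 500 kb around the other genes, neighbours past the threshold upward in some line are counted against the same 14.5% of all tested genes. For Adam11, 4 of 28 tested neighbours were, with C1ql1 in 4 lines (log2 2.78 in iG+P). For Btnl10 3 of 18 were, with the histone gene H2bu2, 31.0 kb away, in 4 lines (3.29 in iGPA). For Igfbpl1 3 of 12 were, with Stra6l, at -21.7 kb from its start, in 5 lines (3.43 in iAtoh1). For Prrxl1 3 of 11 were, with Vstm4 in 4 lines (4.11 in iG+A), for Pla2g2f 7 of 16, for Adcy5 1 of 6 and for Tmem121b 2 of 12. Past the threshold downward in some line were 3 neighbours of Adam11, 2 of Pla2g2f and 1 of Btnl10. For Adcy5, Igfbpl1, Prrxl1 and Tmem121b 0 were. Gjc1, 58.3 kb downstream of the Adam11 start, fell in 4 lines (-2.52 in iG+P). No neighbour rose in all 7 lines, and Zfp804a had no neighbour in the table. The neighbours named here were chosen after their values were seen.

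The promoters of Btnl10 and Pla2g2f are shown because, of the 7 genes with a promoter entry, they alone held a searched motif. Each run has 250 bases before and 50 after a transcription start of RefSeq (GRCm38.p6), and Btnl10 had 2 entries, of which the second is shown. The other entries were for Adcy5, Hprt, Prrxl1, Tmem121b and Zfp804a. Capitals mark CAGCTG and CAGATG (E-box letters of the Atoh1 type, CATCTG on the other strand) and TAATTA (a POU homeodomain type).
Btnl10, chr11:58917807-58918106, forward strand: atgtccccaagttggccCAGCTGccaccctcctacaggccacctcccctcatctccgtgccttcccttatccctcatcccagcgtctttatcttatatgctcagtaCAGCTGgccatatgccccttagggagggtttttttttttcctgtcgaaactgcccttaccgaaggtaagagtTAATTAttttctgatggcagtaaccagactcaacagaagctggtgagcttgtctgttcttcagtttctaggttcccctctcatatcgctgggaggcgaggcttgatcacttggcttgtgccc
Pla2g2f, chr4:138757549-138757848, reverse strand: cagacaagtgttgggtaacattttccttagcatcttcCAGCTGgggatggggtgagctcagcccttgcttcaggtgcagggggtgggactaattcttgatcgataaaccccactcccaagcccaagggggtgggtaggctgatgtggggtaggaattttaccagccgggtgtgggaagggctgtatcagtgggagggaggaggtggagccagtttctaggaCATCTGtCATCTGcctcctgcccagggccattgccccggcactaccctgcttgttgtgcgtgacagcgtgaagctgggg

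The Btnl10 window shown held CAGCTG at bases -233 and -144 from the start, and TAATTA at -72. The other Btnl10 entry held CAGCTG at -84 and 6 and no TAATTA, so these matches depend on the start used. The Pla2g2f window held CAGCTG at -213 and CAGATG on the other strand at -29 and -22. Of 18677 promoters of genes in the table, 16.5% held CAGCTG, 13.6% CAGATG, 27.8% either of them and 3.7% TAATTA. The letters AAATCA (a Gfi1 core, 10.4% of promoters) and ATTAAT (3.1%) were in none of the 8 windows. The windows of Adcy5, Hprt, Prrxl1, Tmem121b and Zfp804a held none of the 5 motifs. A match of letters is a description and not a bound site. The Hprt promoter is shown for comparison, since it lies beside the cassette.
Hprt, chrX:52987828-52988127, forward strand: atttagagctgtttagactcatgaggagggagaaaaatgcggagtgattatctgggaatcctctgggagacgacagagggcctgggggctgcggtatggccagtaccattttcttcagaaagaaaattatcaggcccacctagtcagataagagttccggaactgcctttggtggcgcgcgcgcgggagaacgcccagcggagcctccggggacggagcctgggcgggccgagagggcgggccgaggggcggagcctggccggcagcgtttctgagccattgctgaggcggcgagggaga

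For each gene, the non-member whose log2 levels correlated best over the 28 libraries is given by Pearson's r, as a description. The points share Dox treatment, sorting and line. The closest were Rtn4rl2 for Adam11 (0.983), Sema6b for Pla2g2f (0.968), Grin2c for Tmem121b (0.966), Dyrk1b for Btnl10 (0.963), Foxo6 for Igfbpl1 (0.963), Barhl1, a homeodomain factor, for Prrxl1 (0.95), AI593442 for Zfp804a (0.921), Araf for Adcy5 (0.91) and Gstm5 for Hprt (0.884). Over the 14 Dox libraries alone r ran from 0.795 (Adcy5 and Araf) to 0.964 (Adam11 and Rtn4rl2). Adcy5 and Hprt had the lowest values in both sets.

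Markers of other cell types moved with Dox beside these genes. Of 14 general neuronal markers, 13 were past the threshold upward in iP+A, 11 in iGPA, and 5 in iAtoh1 and iG+A. In iPou4f3 and iG+P 3 were, and in iGfi1 0 (2 at an unadjusted p under 0.05). In the same list 2 fell in iG+A, 1 each in iAtoh1, iGfi1, iG+P and iGPA, and 0 in iPou4f3 and iP+A (1 and 0 at an unadjusted p under 0.05). Gap43, a growth cone protein gene, fell in 4 lines (log2 -4.14 in iG+A) and rose in iP+A (3.15), and Ina, a neurofilament gene, fell in 2 (-2.06 in iAtoh1). Their summed level was 1147 to 30680 in the Dox libraries and 1418 to 2341 in the untreated ones. Of 12 blood markers, 0 (iGfi1, iPou4f3) to 7 (iAtoh1, iG+A, iP+A) fell in a line and 0 rose (up to 6 at an unadjusted p under 0.05, in iGfi1), with sums of 14820 to 383300 with Dox and 72250 to 516500 without. Of 12 fibroblast and mesenchyme markers, up to 9 fell (iGPA), with 1 up in iP+A and iGPA and sums of 54800 to 293300 with Dox and 141600 to 367800 without. Of 12 pluripotency markers, 0 rose (up to 1 at an unadjusted p under 0.05) and up to 8 fell (iP+A), with sums of 4100 to 14080 and 6261 to 33600. Of 8 endothelial and 8 endoderm markers, 0 rose (up to 5 and 1 at an unadjusted p under 0.05) and up to 2 and 3 fell. No marker gene was at 0 in all libraries of either kind. Of 17 genes of dissociation and sorting stress, 0 were past the threshold upward in any line (at most 2 at an unadjusted p under 0.05) and 2 fell in iG+A, with sums of 33760 to 182700 with Dox and 34960 to 177500 without. The share of all genes past the threshold downward is not given here, so the counts of falls are descriptions only. The part of these cell types in the rise of the 9 genes was not tested.

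**Figure D5:**
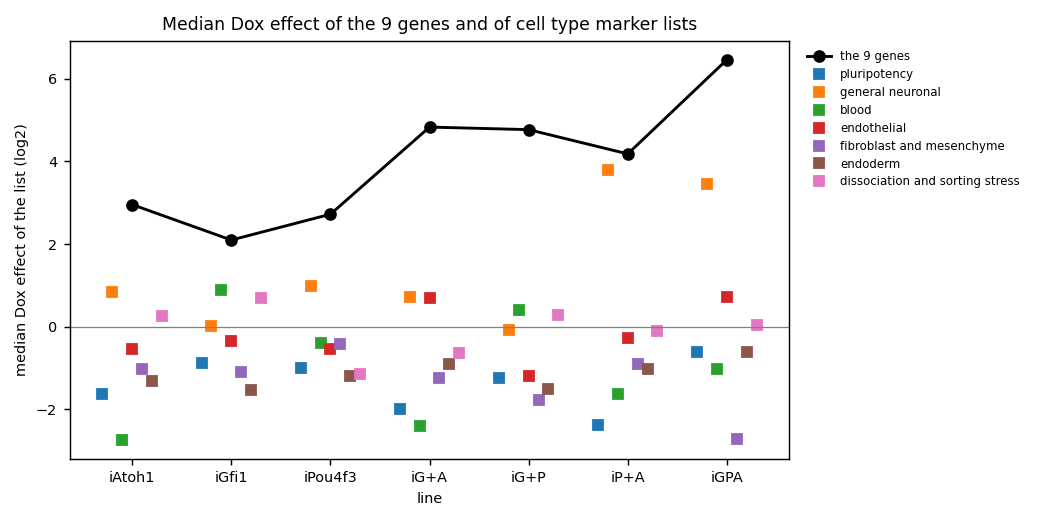
Median Dox effect (log2) of the 9 genes (black) and of 7 lists of markers of other cell types or of stress (coloured squares, offset sideways for legibility), by line. The black points run from 2.10 in iGfi1 to 6.46 in iGPA, and the neuronal markers are near 0 in iGfi1 (0.03) and reach 3.80 in iP+A.

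Just outside the rule, 48 genes (0.285%) were past the threshold upward in exactly 6 lines. The 5 of them with the largest rise in the remaining line were Kcng1 (log2 1.85 in iPou4f3, adjusted p = 0.0681), Mmd2 (1.69 in iPou4f3), Brinp2 (1.43 in iPou4f3), Miat (1.39 in iGfi1) and Grm4 (1.38 in iAtoh1). The smallest rises of the 9 genes just inside it were 1.66 for Adcy5 in iGfi1, 1.79 for Adam11 and Btnl10 in iAtoh1 and 1.84 for Igfbpl1 in iGfi1.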

How the data were processed

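Expression was measured by mRNA sequencing in 28 samples (7 lines, Dox and No Dox, 2 replicates each), with 1 µg of total RNA as input. The authors trimmed reads with cutadapt, pseudo-aligned them with Kallisto to mm9 transcripts, used tximport for gene-level sums and DESeq2 for normalization (versions not given in the sources used here). The deposited values are log2(normalized count + 1), and normalized counts were recovered from them. Whole reads could not be recovered (72.4% to 79.4% of low values within 0.05 of a whole multiple), so no count test was run. Depth estimated from the steps was 30.3 to 48.0 M reads.

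A gene was tested (16837 of 19421) if 2 or more libraries held 10 normalized counts. A single limma 3.58.1 model (R 4.3.3) covered the 14 groups on log2(value + 1), with a variance trend and 14 residual degrees of freedom, and p-values were adjusted by Benjamini-Hochberg over all genes within each contrast. Fold changes are on that scale and understate those of low genes. The members and the lists of families, markers and motifs were chosen with earlier results of these data known. Named genes were the members, the transgene loci, genes within 500 kb of Hprt, the best correlated gene of each member, up to 5 genes just outside the rule and family genes past the threshold in 4 or more lines. Neighbours of the other members and the genes Adam22, Adam23, Aprt, Zfp804b, Tmem121, Tlx1, Runx1, Ntrk2, Btnl2, Gap43 and Ina fell outside this rule and were chosen after their values were seen, as were Grin2c, Kcnj12 and Stra6. Genes were named from RefSeq (19314) and placed in NCBIM37 (18895). Same-numbered Dox and No Dox samples of a line deviated together (correlations of 0.103 to 0.246 in all 7 lines), which was taken as pairing, although the labels do not say that a number marks the same clone. Where the paired fit changed a call, its value stands beside the result. Recovery of planted changes was tested on simulated data for adding Gfi1 only. None was planted in genes with a low untreated level, so low genes are not covered. The alternatives were other pseudocounts, filters, scalings, thresholds, control groups and variance models, the replicate block and each library left out.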

Additional observations from a re-analysis of the deposited data

Results flagged for a closer look

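The Dox effect differed with and without a factor for 21 of the 27 combinations of gene and factor, by the limma test of the difference itself. These were, on the log2 scale and for the mean of 3 pairs of lines, Adam11 (1.26 for Gfi1, 4.60 for Pou4f3 and 2.05 for Atoh1), Btnl10 (3.24, 2.32 and 1.08), Hprt (0.64, 0.57 and -1.24), Igfbpl1 (2.84, 1.86 and 2.51) and Prrxl1 (1.90, 2.38 and 3.87). Pla2g2f differed for Gfi1 (2.23) and Atoh1 (4.49), Tmem121b for Pou4f3 (3.08) and Atoh1 (1.40), and Zfp804a for Gfi1 (1.83) and Atoh1 (1.73). With the replicate block Tmem121b also differed for Gfi1 (0.86, adjusted p = 0.0197, limma). For Hprt the untreated level itself differed among the lines (F = 10.4, adjusted p = 0.00464, limma F test). Between lines with and without a factor it differed by -0.29 for Gfi1 and -0.42 for Pou4f3. The unadjusted p was 0.0179 and 0.00135, and neither passed after adjustment (0.189 and 0.138, limma). A lower untreated level raises the Dox effect, and its part in the changes of 0.64 and 0.57 was not tested. The background of calls of a changed Dox effect over all genes was 34% for Gfi1, 11% for Pou4f3 and 30.6% for Atoh1.

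For Adcy5 4 single pairs of lines differed, in opposite directions. The differences were -2.02 (iG+A minus iAtoh1), 1.21 (iG+P minus iPou4f3), -1.23 (iP+A minus iAtoh1) and 1.42 (iG+P minus iGfi1). Groups had 2 libraries, too few to look for a library that stands apart within a group.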

How the results depend on the processing

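None of the 7 counts, the 27 averaged changes and the 4 single-pair differences of Adcy5 reversed under any alternative run (the 4 were added after seeing the data). Of these 4, iG+P minus iGfi1 lost its call after quantile normalization (1.19, adjusted p = 0.0606). Leaving out 1 library at a time gave 5 to 9 of the 9 genes and 6 to 13 of all genes past the threshold upward in every line, with the lowest counts (5 and 6) without iPou4f3 Dox replicate 2. It gave 1 to 2 genes whose untreated level differed among lines, with 2 without iAtoh1 No Dox replicate 2, iG+A No Dox replicate 2 or either iGPA No Dox replicate. The other settings gave 8 to 9 and 10 to 16 for the first pair of counts. Over all settings 6 to 8 genes responded to Gfi1, 5 to 6 to Pou4f3 and 7 to 8 to Atoh1, and all 9 differed among lines. With the replicate block these counts were 8, 6, 8 and 9, with 9 of the 9 and 13 of all genes past the threshold in every line. The block changed 1 call, Tmem121b on adding Gfi1 (0.86, adjusted p = 0.0197, range 0.0197 to 0.426), and no other. Leaving out 1 library lost the call of Tmem121b on adding Atoh1 in 19 fits and added that of Tmem121b on adding Gfi1 in 1 (1.23, adjusted p = 0.0379, without iG+A No Dox replicate 2). Other calls that changed were Prrxl1 on adding Pou4f3 with a pseudocount of 0.5 (2.17, adjusted p = 0.0683, range 7.56e-06 to 0.0683), Tmem121b on adding Atoh1 with no filter (1.40, adjusted p = 0.0531, range 0.00136 to 0.0921) or without the variance trend (1.40, adjusted p = 0.0567) and Adcy5 on adding Gfi1 after quantile normalization (-0.55, adjusted p = 0.0331, range 0.0331 to 0.234). The causes were not tested. The F test of untreated levels with the block could not be fitted, and the single control group bears only on the counts of rises. With 2 libraries per group, the SE of a rise was highest for Prrxl1 (0.70), Tmem121b (0.62) and Zfp804a (0.56).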
